A study of Rattus norvegicus with 15 samples.

Results

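The genes described here are 8 rat aldo-keto reductases: Akr1b8, Akr1b1, Akr1b10, Akr7a3, Akr7a2, Akr1a1, Akr1c14 and Akr1d1. They were chosen by name, as the array probes for genes whose transcript accession belongs to any of these 8 symbols, and all 8 had at least 1 probe. The names were chosen with earlier results of these data known, so a count of called members does not stand for the whole family. Of the 8, 7 had a probe well above background on every array of at least 1 group and were tested, among 19803 genes tested in all; the exception, Akr1b10, is described by its signal only. The study exposed primary hepatocytes, thawed from frozen stocks of male Wistar rats (spelled Wister in the labels), to naphthalene or to a hydroxylated relative of it, as part of a read-across of liver toxicity between naphthalene and its analogs. All 5 groups of 3 arrays were pre-cultured for 24 h and then exposed for 24 h: DMSO as the vehicle control, and 30 µM of naphthalene, 1-naphthol, 1,5-naphthalenediol or 2,7-naphthalenediol. Naphthalene is a pair of fused benzene rings; 1-naphthol carries a hydroxyl group at position 1, and the diols carry hydroxyl groups at positions 1 and 5 or at positions 2 and 7. According to the series' design text the 3 arrays of a group are independent experiments, but neither the rats' age nor the number of animals or cell lots is given in the sources used here, so the p-values below measure the spread between these samples. Levels are given as log2 of the one-colour signal minus that array's 75th percentile, so that 0 is the 75th percentile of the gene spots, and a change is a difference between group means on that log2 scale. A gene is said to have risen or fallen where its adjusted p was below 0.05 (limma, Benjamini-Hochberg over the 19803 genes within each of 10 comparisons between groups).

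Aldo-keto reductases are cytosolic enzymes that use NADPH to reduce aldehydes and ketones to alcohols. In the liver they detoxify reactive aldehydes and dicarbonyls, reduce quinones and take part in steroid, bile acid and sugar metabolism. Several family members are known targets of NRF2, the transcription factor that responds to electrophiles and oxidants, whereas others are expressed at a steady level in hepatocytes.

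The 15 arrays lay on 2 slides that were scanned separately, so that slide 1 is also scan 1. All DMSO and 2,7-naphthalenediol arrays and 1,5-naphthalenediol replicates 1 and 2 were on slide 1, and 1,5-naphthalenediol replicate 3 and all 1-naphthol and naphthalene arrays were on slide 2. A comparison of DMSO or 2,7-naphthalenediol with 1-naphthol or naphthalene therefore crosses the slides, and a fit with slide as a block rests there on the 1,5-naphthalenediol arrays, the only group on both. The arrays were alike in brightness, with 75th percentiles of 1718 to 2074 intensity units and 57.4% to 61% of gene spots well above background, and arrays of a group correlated at 0.996 or more. The labelled cell type was checked by 10 hepatocyte markers, among them albumin, all of which were measured. Their linear levels, relative to the 75th percentile, summed to 614 to 634 on the DMSO arrays and to 566 to 616 over the compounds' arrays. Of 8 stellate cell markers, 5 were measured and Col1a1, Lrat and Pdgfrb were not above background; the list summed to 3.5 to 3.61 with DMSO, 2.61 to 3.24 with naphthalene, 2.41 to 2.9 with 1-naphthol, 2.75 to 3.41 with 2,7-naphthalenediol and 2.05 to 2.26 with 1,5-naphthalenediol. Of 6 bile duct markers 2 were measured and Krt19, Krt7, Cftr and Spp1 were not above background; the list summed to 0.607 to 0.658 with DMSO and 0.633 to 0.666 with naphthalene, but to 0.466 to 0.559 over the arrays of the 3 hydroxylated compounds. The part of these cells in the results was not tested, and in such cultures fewer cells of a type and less RNA per cell cannot be told apart. Of 9 macrophage, 8 endothelial and 6 lymphocyte markers, 2 each were measured, and others such as Adgre1, Pecam1 and Cd3e were not above background. The endothelial list summed to 1.88 to 2.08 with DMSO but to 1.68 to 1.87 with 2,7-naphthalenediol. The lymphocyte list summed to 0.0608 to 0.0753 with DMSO and 0.0555 to 0.0599 with 2,7-naphthalenediol. Every other sum of these lists overlapped the sums with DMSO, and the part of these cells was likewise not tested.

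Of the 7 tested aldo-keto reductases, Akr1b8 and Akr7a3 rose with each of the 3 hydroxylated compounds, and neither was called with naphthalene. Against DMSO, 2 of 7 rose with 2,7-naphthalenediol, where 6.2% of all genes tested rose and 11% were called in either direction. With 1,5-naphthalenediol 2 of 7 rose, where 9.41% of genes rose and 22.1% were called. With 1-naphthol 2 of 7 rose, where 10.2% of genes rose and 20.8% were called. With naphthalene 0 of 7 were called by limma at the adjusted threshold, and 0 of 7 had an unadjusted p below 0.05, where 25.1% of all genes were called. These 4 comparisons share the DMSO arrays. Between compounds, both genes were higher with 1,5-naphthalenediol than with 2,7-naphthalenediol (6.62% of genes higher, 14.7% called), than with 1-naphthol (4.36% and 9.16%) and than with naphthalene (11.3% and 24.9%). Both were higher with 1-naphthol than with naphthalene (1.04% of genes higher, 2.44% called) and higher with 2,7-naphthalenediol than with naphthalene (6.32% and 15.8%). Both were lower with 2,7-naphthalenediol than with 1-naphthol (8.49% of genes lower, 14.7% called). The other 5 tested members were called in none of the 10 comparisons. The median change of the 7 against DMSO was 0.08 with 2,7-naphthalenediol, 0.09 with 1,5-naphthalenediol, 0.04 with 1-naphthol and -0.10 with naphthalene, where the median over all genes lay within 0.02 of 0.

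**Figure D1:**
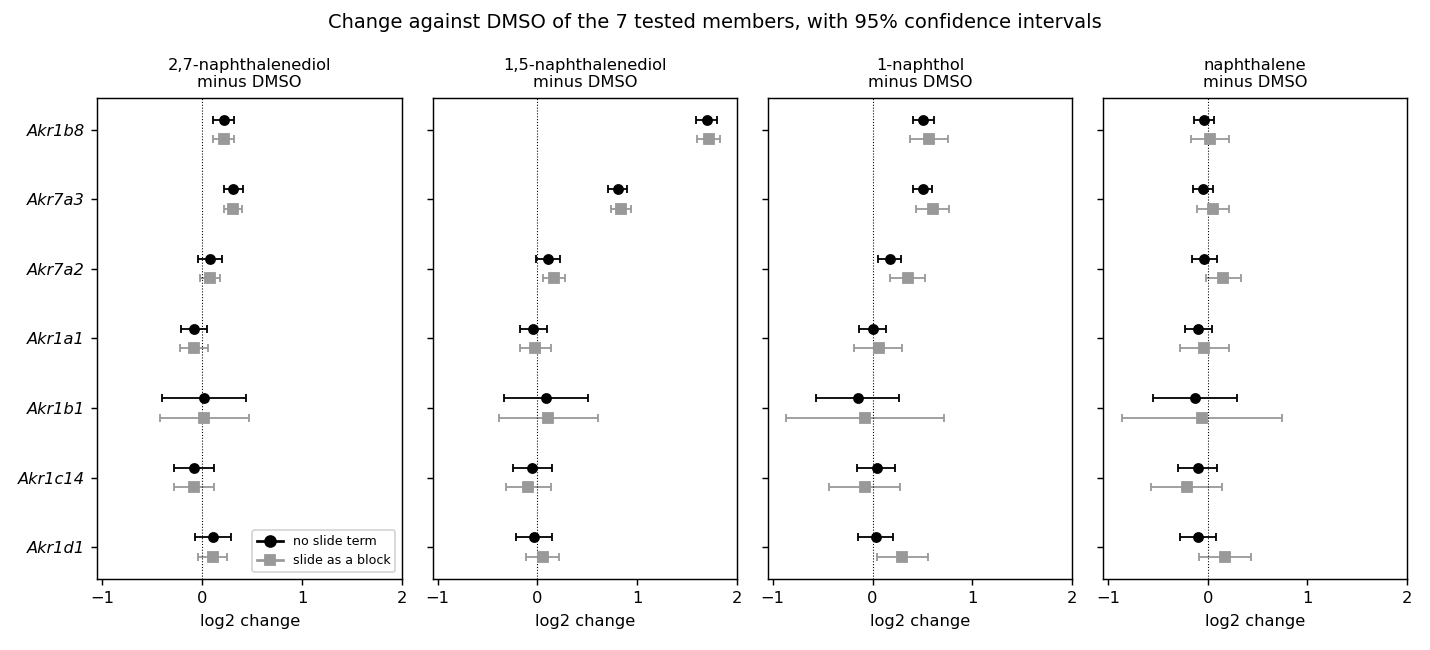
Change against DMSO on the log2 scale of each of the 7 tested members, with 1 panel for each compound. Points are limma estimates from 3 arrays a group and bars are 95% confidence intervals, in black without a slide term and in grey with slide as a block; Akr1b8 and Akr7a3 lie to the right of 0 in the panels of the 3 hydroxylated compounds, at 1.70 and 0.81 with 1,5-naphthalenediol, and near 0 with naphthalene.

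Akr1b8 is an aldose reductase-like enzyme that reduces aldehydes, retinal among them, and had the largest change of the 7 tested members with 1,5-naphthalenediol. It is measured by 1 probe printed at 10 spots, whose values on an array had SDs of 0.0419 to 0.115. Its promoter is shown because the level of its transcript differed most between the compounds. The 250 bases before the annotated start of Akr1b8, from the RefSeq table for build GRCr8, lie at chr4:63964171-63964420 on the plus strand and read as follows.
Akr1b8: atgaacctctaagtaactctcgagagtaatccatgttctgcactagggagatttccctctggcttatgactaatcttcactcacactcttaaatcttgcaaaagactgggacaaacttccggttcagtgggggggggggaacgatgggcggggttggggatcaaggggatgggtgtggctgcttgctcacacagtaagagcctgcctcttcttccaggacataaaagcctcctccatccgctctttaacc
Core motifs were searched on both strands of such windows, written here in letters: TGACNNNGC, the core of the antioxidant response element that NRF2 binds, and GCGTG, the core of the xenobiotic response element that the dioxin receptor AhR binds. Neither is present in this window of Akr1b8, which therefore holds no capitals. Of 33469 rat promoter windows of 250 bases, 10.1% hold TGACNNNGC and 25.9% hold GCGTG.

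On the DMSO arrays Akr1b8 stood at -2.03, -1.99 and -1.98. On the naphthalene arrays it stood at -2.06, -2.04 and -2.02, which overlaps the DMSO values. With 2,7-naphthalenediol it was -1.89, -1.76 and -1.70, above each DMSO array but with the widest spread of the 5 groups. The 1-naphthol arrays gave -1.48, -1.49 and -1.49. The 1,5-naphthalenediol arrays gave -0.33, -0.24 and -0.34, above every other array by more than 1 on the log2 scale. The array of 1,5-naphthalenediol on slide 2 (-0.34) lay beside those on slide 1. The groups overlapped in 1 of the 10 comparisons, naphthalene with DMSO. The share of all genes without overlap was not worked out, so this is a description only.

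Against DMSO, Akr1b8 rose 3.24-fold with 1,5-naphthalenediol (log2 change 1.70 ± 0.0474 SE, adjusted p = 5.82e-10). It rose 1.43-fold with 1-naphthol (0.51, adjusted p = 0.000141), a comparison that crosses the slides, and with slide as a block the change was 0.57 (adjusted p = 0.0165). It rose 1.16-fold with 2,7-naphthalenediol (0.22, adjusted p = 0.0163). That small rise was the least settled: the adjusted p was 0.0599 within slide 1, 0.0808 with only these 2 groups fitted, 0.0515 without DMSO replicate 1, 0.0654 without 2,7-naphthalenediol replicate 2 and 0.0617 without its replicate 3. With naphthalene the change was -0.04, with a 95% confidence interval of -0.14 to 0.06 (adjusted p = 0.563).

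The structural relatives differed in Akr1b8 at the same dose and time. Over 6 pairs of compounds, all 6 differed by limma's test without a slide term. With 1-naphthol, which carries a hydroxyl group at position 1, Akr1b8 was 0.55 higher than with naphthalene, or 1.47-fold (adjusted p = 0.000124). Both groups are on slide 2. With 1,5-naphthalenediol, which carries a further hydroxyl group at position 5, it was 1.18 higher than with 1-naphthol, or 2.27-fold (adjusted p = 4.09e-08). With slide as a block this was 1.15 (adjusted p = 1.08e-05). The diols, which differ in the positions of their hydroxyl groups, were 1.48 apart, or 2.79-fold (adjusted p = 2.94e-09), and 1.50 apart within slide 1 (adjusted p = 0.000227). The difference of 1,5-naphthalenediol from naphthalene was 1.74, or 3.33-fold (adjusted p = 5.52e-10). The remaining 2 pairs cross the slides and kept their direction but not their call with slide as a block. For 2,7-naphthalenediol minus 1-naphthol the change was -0.30 (adjusted p = 0.00544) and -0.35 with the block (adjusted p = 0.193). For 2,7-naphthalenediol minus naphthalene it was 0.26 (adjusted p = 0.00857) and 0.20 with the block (adjusted p = 0.51). The groups in order from high to low were 1,5-naphthalenediol, 1-naphthol, 2,7-naphthalenediol, DMSO and naphthalene, and the last 2 did not differ beyond their spread.

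**Figure D2:**
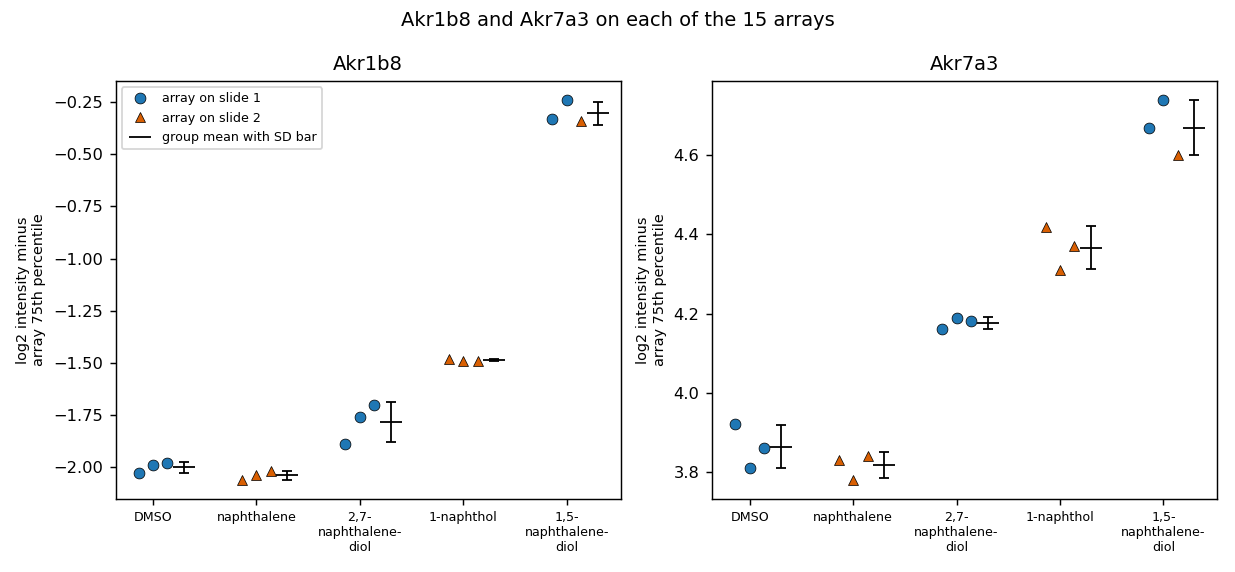
Levels of Akr1b8 (left) and Akr7a3 (right) on each of the 15 arrays, as log2 intensity minus the array's 75th percentile; circles are arrays on slide 1, triangles arrays on slide 2, and the black mark beside each group is its mean with an SD bar (n = 3). In both panels the groups step up from naphthalene and DMSO through 2,7-naphthalenediol and 1-naphthol to 1,5-naphthalenediol, whose mean is -0.30 for Akr1b8 and 4.67 for Akr7a3.

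Akr7a3 is the aflatoxin aldehyde reductase of rat liver, known for its induction by antioxidants that protect against aflatoxin. It is the annotated neighbour of Akr7a2 on chromosome 5 of GRCr8, with no other protein-coding gene between them in that annotation, and their promoter windows are shown together because the 2 neighbours responded unlike each other. The capitals mark GCGTG; TGACNNNGC is in neither window.
Akr7a3: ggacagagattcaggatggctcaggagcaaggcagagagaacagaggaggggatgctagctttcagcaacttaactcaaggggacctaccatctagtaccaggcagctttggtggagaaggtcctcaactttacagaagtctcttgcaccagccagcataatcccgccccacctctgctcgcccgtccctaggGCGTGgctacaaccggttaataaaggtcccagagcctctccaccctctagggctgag
Akr7a2: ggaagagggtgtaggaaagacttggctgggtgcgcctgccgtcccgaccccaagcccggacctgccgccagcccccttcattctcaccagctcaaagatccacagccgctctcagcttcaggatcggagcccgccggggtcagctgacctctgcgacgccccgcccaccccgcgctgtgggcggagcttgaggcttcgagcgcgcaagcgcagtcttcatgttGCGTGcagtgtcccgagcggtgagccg
The window of Akr7a3 lies at chr5:156876471-156876720 and that of Akr7a2 at chr5:156835339-156835588, both on the plus strand. GCGTG lies 57 to 53 bases before the start of Akr7a3 and 27 to 23 bases before the start of Akr7a2, and such a match describes letters only.

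Akr7a3 was measured at 3.92, 3.81 and 3.86 with DMSO and at 3.83, 3.78 and 3.84 with naphthalene, and these groups overlap. It reached 4.16, 4.19 and 4.18 with 2,7-naphthalenediol and 4.42, 4.31 and 4.37 with 1-naphthol. The 1,5-naphthalenediol arrays were highest, at 4.67, 4.74 and 4.60, with the lowest of these on slide 2. All other pairs of groups were free of overlap, again without a share over all genes to set beside it. The order of the groups was the same as for Akr1b8, with smaller steps at the top.

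Against DMSO, Akr7a3 rose 1.75-fold with 1,5-naphthalenediol (0.81 ± 0.0446 SE, adjusted p = 4.52e-07), 1.42-fold with 1-naphthol (0.51, adjusted p = 0.000102) and 1.24-fold with 2,7-naphthalenediol (0.31, adjusted p = 0.00288). All 3 rises kept their call with slide as a block, where that of 1-naphthol was 0.61 (adjusted p = 0.00555). With naphthalene the change was -0.05 (95% confidence interval -0.15 to 0.05, adjusted p = 0.435). Between compounds, 1-naphthol exceeded naphthalene by 0.56 (1.47-fold, adjusted p = 6.82e-05). 1,5-naphthalenediol exceeded 2,7-naphthalenediol by 0.49 (1.41-fold, adjusted p = 3.84e-05) and naphthalene by 0.86 (1.81-fold, adjusted p = 4.1e-07). Its step above 1-naphthol was 0.30 (1.23-fold, adjusted p = 0.00223), but 0.23 with slide as a block (adjusted p = 0.0743), and with only these 2 groups fitted the adjusted p was 0.0552. Within slide 2, where 1,5-naphthalenediol has a single array assumed to vary like the other groups, the step was 0.23 (adjusted p = 0.25).

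2,7-naphthalenediol stood above naphthalene in Akr7a3 by 0.36 (adjusted p = 0.0027) and below 1-naphthol by 0.19 on the log2 scale (change -0.19, adjusted p = 0.016). Both comparisons cross the slides and lost their call with slide as a block, at 0.26 (adjusted p = 0.344) and -0.29 (adjusted p = 0.222). Leaving out each array in turn, the second ran from -0.22 to -0.17, and its adjusted p was 0.0613 without 1-naphthol replicate 1 and 0.0504 without its replicate 3. For both Akr1b8 and Akr7a3, the changes against DMSO with 1,5-naphthalenediol and 1-naphthol kept their direction and call under quantile scaling, centring on the array median and normexp background correction.

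Akr7a2, the neighbour of Akr7a3, encodes a reductase of succinic semialdehyde and of aflatoxin aldehyde. It differed among the 5 groups by the F test (adjusted p = 0.0472, where 44.7% of all genes did), but in none of the 10 pairwise comparisons. Its arrays read 1.05, 0.95 and 0.94 with DMSO, 1.01, 0.91 and 0.91 with naphthalene, and 1.04, 1.11 and 1.02 with 2,7-naphthalenediol. They read 1.18, 1.11 and 1.16 with 1-naphthol, above each DMSO and naphthalene array, and 1.14, 1.17 and 0.97 with 1,5-naphthalenediol. The change against DMSO was 0.17 with 1-naphthol (95% confidence interval 0.05 to 0.29, adjusted p = 0.0508) and 0.11 with 1,5-naphthalenediol (-0.01 to 0.23, adjusted p = 0.182). With slide as a block these became 0.36 (adjusted p = 0.0584) and 0.17 (adjusted p = 0.0295), and 1-naphthol minus naphthalene, at 0.21 in both fits, moved from an adjusted p of 0.081 to 0.0348. The 1-naphthol change against DMSO was called under 6 of the other settings tried, at 0.17 to 0.20, with adjusted p values from 0.012 with normexp background correction to 0.0466 without DMSO replicate 1. The low 1,5-naphthalenediol array is that on slide 2.

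Akr1a1 is the aldehyde reductase that turns glucuronate into gulonate on the rat's route to vitamin C. Its level varied little: the group means lay between 3.53 with naphthalene and 3.62 with DMSO, and the F test gave an adjusted p of 0.485. Its changes against DMSO were -0.08 with 2,7-naphthalenediol, -0.04 with 1,5-naphthalenediol and -0.10 with naphthalene, and every 95% confidence interval lay between -0.23 and 0.13. The naphthalene value depended on the scaling: centred on the array median, it was -0.18 (adjusted p = 0.0406). Naphthalene replicate 2 read 3.40 and the other two arrays 3.60 and 3.57, against 3.61 to 3.64 with DMSO.

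Akr1b1, aldose reductase, makes sorbitol from glucose in the polyol pathway and is low in hepatocytes. Its probe gave a faint signal of 19.6 to 34.7 intensity units, although well above background on all 15 arrays. The values were -6.12, -5.87 and -6.23 with DMSO and ranged from -6.72 to -5.84 over the compounds' arrays, both extremes being 1-naphthol arrays. No change against DMSO exceeded 0.15 in size. The 95% confidence intervals were wide, reaching down to -0.57 with 1-naphthol and up to 0.51 with 1,5-naphthalenediol, so changes of such sizes are not excluded for these compounds. A dimmer probe for Akr1b1, above background on 10 of 15 arrays, gave -0.95 with 1-naphthol (adjusted p = 0.108 over all probes) and -0.71 with naphthalene (adjusted p = 0.245), where only 1 array of each compound was above background. Akr1b10, a close relative of Akr1b8 in the same gene cluster, gave 3.39 to 15.4 and 4.14 to 12 intensity units on its 2 probes, and 1 array (1-naphthol replicate 1) and 0 arrays were well above background, so no fold is given.

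The Akr1b genes stand side by side on chromosome 4 of GRCr8, in the order Akr1b1, Akr1b8, Akr1b10 and Akr1b7, with no other protein-coding gene among them in that annotation. Within this cluster of 4, Akr1b8 rose with all 3 hydroxylated compounds. Akr1b7 differed among the 5 groups by the F test (adjusted p = 0.0021), with small changes against DMSO of -0.12 to 0.16. Akr1b1 and Akr1b10 are at or near the lower limit of the measurement.

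Akr1c14 and Akr1d1 act on steroids. Akr1c14 is the 3-alpha-hydroxysteroid dehydrogenase of rat liver, and Akr1d1 is the 5-beta-reductase that saturates the ring of bile acid precursors and steroid hormones. Akr1c14 stood at 2.38, 2.34 and 2.24 with DMSO, and its group means lay between 2.22 with naphthalene and 2.36 with 1-naphthol (F test, adjusted p = 0.6). Its change against DMSO lay between -0.10 and 0.04 over the 4 compounds, with 95% confidence intervals that reached from -0.30 to 0.23. Akr1d1 stood at -0.21, -0.27 and -0.11 with DMSO, and its group means lay between -0.30 with naphthalene and -0.09 with 2,7-naphthalenediol (F test, adjusted p = 0.273). Its changes lay between -0.10 and 0.11, with intervals from -0.28 to 0.29, and none of its 3 probes was called. With slide as a block its change with 1-naphthol was 0.30 (0.04 to 0.56, adjusted p = 0.211) in place of 0.03. Neither gene was called in any of the 10 comparisons, with or without slide as a block.

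**Figure D3:**
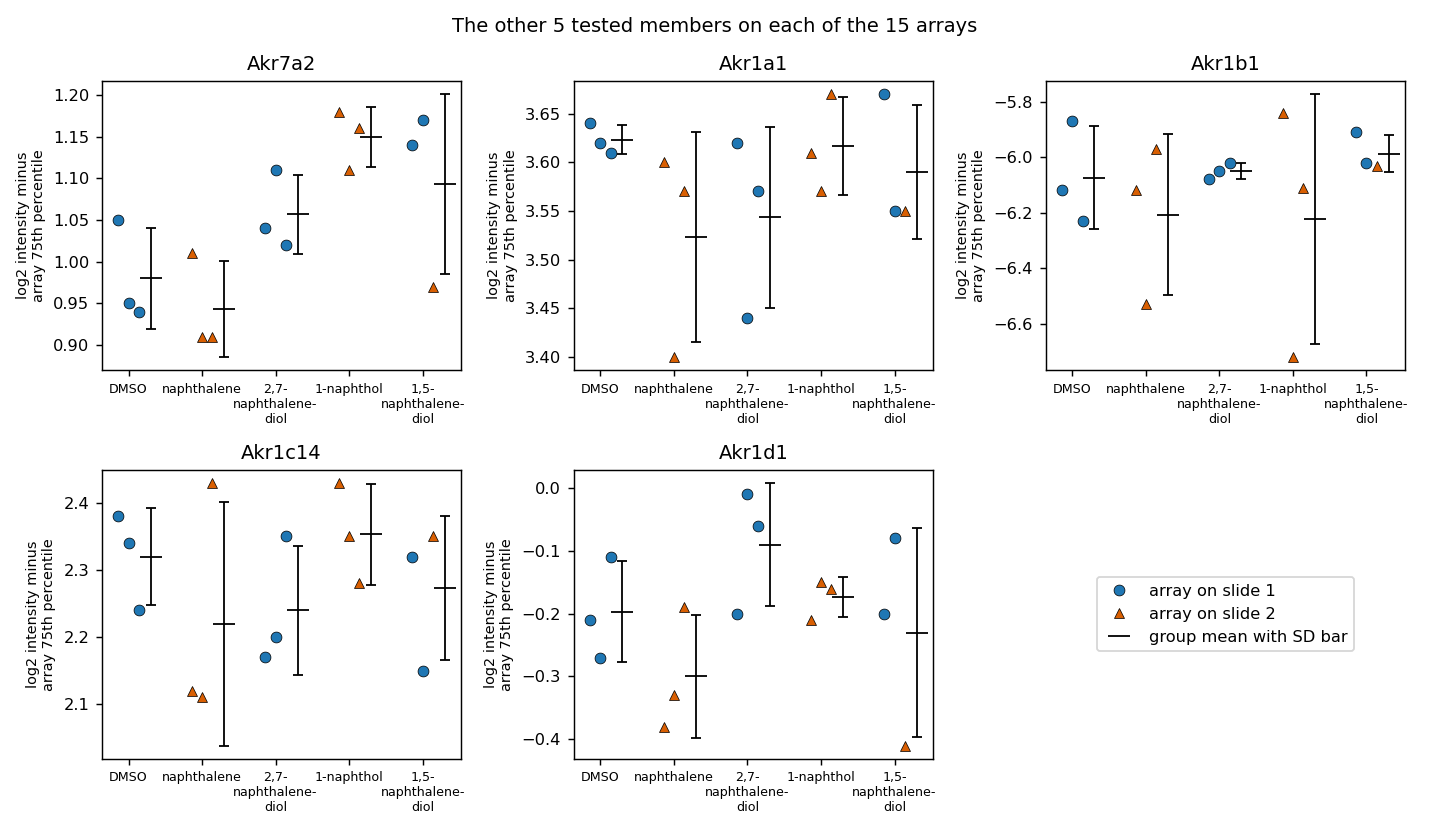
Levels of Akr7a2, Akr1a1, Akr1b1, Akr1c14 and Akr1d1 on each array, as log2 intensity minus the array's 75th percentile, with arrays on slide 1 as circles, arrays on slide 2 as triangles and group means with SD bars (n = 3); each panel has its own scale. Against DMSO the arrays of a compound overlap with the DMSO arrays, except for Akr7a2 with 1-naphthol (1.11 to 1.18, above DMSO at 0.94 to 1.05) and Akr1a1 with naphthalene (3.40 to 3.60, below DMSO at 3.61 to 3.64). The share of all genes without overlap was not worked out, so these exceptions are a description only.

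Beyond the 8 members, 10 further aldo-keto reductase symbols had a probe, and 9 were tested, Akr1c3 being not above background. Their called changes went both ways, and with 1,5-naphthalenediol all were smaller than that of Akr1b8. With 1-naphthol, Akr1c19 changed more (0.58) than Akr1b8 or Akr7a3 (0.51 each). Against DMSO, 0 of 9 rose and 1 fell with 2,7-naphthalenediol, 2 rose and 3 fell with 1,5-naphthalenediol, 3 rose and 0 fell with 1-naphthol, and 1 rose and 2 fell with naphthalene. Of all genes 11%, 22.1%, 20.8% and 25.1% were called in that order. Akr1c19 rose with naphthalene by 0.47 (adjusted p = 0.00905), with 1-naphthol by 0.58 (adjusted p = 0.00406) and with 1,5-naphthalenediol by 0.39 (adjusted p = 0.0198). With slide as a block only the last kept its call (adjusted p = 0.0341), against 0.115 for 1-naphthol and 0.168 for naphthalene. Akr1c13 rose by 0.42 with 1,5-naphthalenediol (adjusted p = 0.00252) and by 0.28 with 1-naphthol (adjusted p = 0.0255), the latter being 0.07 with slide as a block (adjusted p = 0.801), and neither rise appeared on a second, dimmer Akr1c13 probe. That probe gave -0.00 with 1,5-naphthalenediol (adjusted p = 0.986 over all probes) and 0.04 with 1-naphthol (adjusted p = 0.772).

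Akr1c1 fell by 0.21 with 2,7-naphthalenediol (adjusted p = 0.0259) and by 0.29 with 1,5-naphthalenediol (adjusted p = 0.0023), and both calls held with slide as a block. Akr1c12 fell by 0.18 with 1,5-naphthalenediol (adjusted p = 0.019). With 2,7-naphthalenediol its change was -0.15 (adjusted p = 0.066). That change was called with slide as a block (-0.15, adjusted p = 0.0334) and centred on the array median (-0.20, adjusted p = 0.0279). It was not called with quantile scaling (-0.10, adjusted p = 0.13) or normexp (-0.15, adjusted p = 0.0906). Akr1e2 fell by 0.19 with 1,5-naphthalenediol (adjusted p = 0.0123) and by 0.14 with naphthalene (adjusted p = 0.0464, or 0.744 with slide as a block). Akr1b7, next to Akr1b10, rose by 0.16 with 1-naphthol (adjusted p = 0.0166) and fell by 0.12 with naphthalene (adjusted p = 0.0468), neither of which was called with slide as a block (adjusted p = 0.0636 and 0.936). The rise kept its call with quantile scaling (adjusted p = 0.0247) and normexp (adjusted p = 0.00905) but not when centred on the array median (0.12, adjusted p = 0.113). The fall was -0.21 when centred on the array median (adjusted p = 0.00992), and was not called with quantile scaling (-0.12, adjusted p = 0.0686) or normexp (-0.07, adjusted p = 0.23). Both compounds are on slide 2, and Akr1b7 was 0.28 higher with 1-naphthol than with naphthalene (adjusted p = 0.00496). It was also above naphthalene with 1,5-naphthalenediol (0.24, adjusted p = 0.00164) and 2,7-naphthalenediol (0.18, adjusted p = 0.0149). Neither kept its call with slide as a block (adjusted p = 0.0613 and 0.778). Against DMSO, Akr1b7 with 1,5-naphthalenediol was at 0.12 (adjusted p = 0.0541), and at 0.16 with slide as a block (adjusted p = 0.017). Akr1c2, Akr1c12l1 and Akr1c15 were not called against DMSO. The Akr1c genes are much alike in sequence and form a run of neighbours on chromosome 17, and probe sequences were not used here, so a signal for an Akr1c gene may include its relatives; this was not tested.

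**Figure D4:**
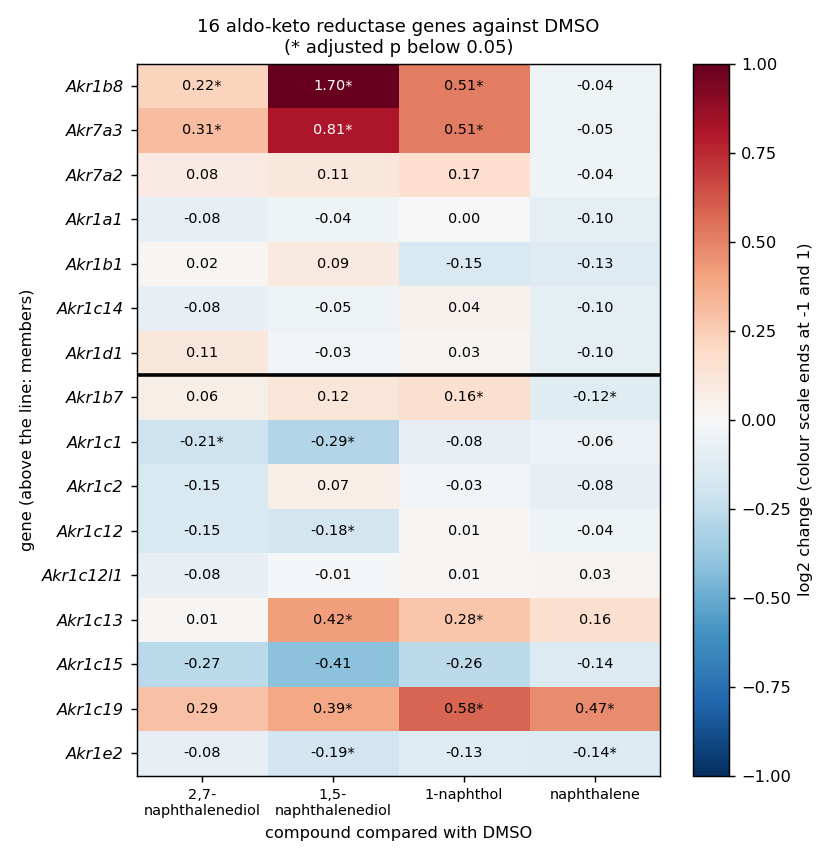
Change against DMSO (log2) of 16 aldo-keto reductase genes with each compound, by colour and by the printed value; the 7 tested members are above the line, the 9 other family genes below it, and a star marks an adjusted p below 0.05 (limma, 3 arrays a group, no slide term). Akr1b8 and Akr7a3 carry stars in the columns of all 3 hydroxylated compounds, and their largest values are 1.70 and 0.81 with 1,5-naphthalenediol.

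The wider pathways were counted on lists of genes other than the 8 members. Of all genes tested, 11% were called against DMSO with 2,7-naphthalenediol, 22.1% with 1,5-naphthalenediol, 20.8% with 1-naphthol and 25.1% with naphthalene. With slide as a block far fewer of all genes were called with 1-naphthol and naphthalene, so few or no calls there are not particular to a list. Of the 32 tested genes of NRF2's known program, 11 rose and 0 fell with 2,7-naphthalenediol, 13 rose and 2 fell with 1,5-naphthalenediol, and 14 rose and 1 fell with 1-naphthol. With naphthalene 2 rose and 2 fell. The median change was 0.09, 0.16, 0.12 and 0.00 in that order. With slide as a block the counts were 11 rising and 1 falling with 2,7-naphthalenediol, 14 and 1 with 1,5-naphthalenediol, 6 and 0 with 1-naphthol, and 1 and 0 with naphthalene. Centred on the array median, 7 rose and 1 fell with 2,7-naphthalenediol, and 2 rose and 9 fell with naphthalene. Gstp1, a glutathione transferase, rose by 2.29 with 1,5-naphthalenediol and 0.92 with 1-naphthol, and Nqo1, the quinone reductase, by 1.63 and 1.24. Gsta2, another glutathione transferase, rose by 1.19 and 0.83. With 2,7-naphthalenediol the leading genes were Slc7a11, the cystine carrier, at 0.61, Hmox1, heme oxygenase, at 0.42, and Nqo1 at 0.41. Hmox1 went the other way with naphthalene, at -0.41 (adjusted p = 0.0032, or 0.14 with slide as a block). Its mean level was also lower with 1-naphthol (-0.89) than with DMSO (-0.63), a comparison that likewise crosses the slides, and was -0.46 with 1,5-naphthalenediol. Between 1-naphthol and naphthalene, both on slide 2, 10 of 32 were higher with 1-naphthol and 0 lower, where 2.44% of all genes were called. Between the diols 15 were higher and 6 lower with 1,5-naphthalenediol, where 14.7% of all genes were called, or 11 and 5 with slide as a block.

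Other carbonyl and aldehyde enzymes moved in small numbers. Of 26 tested, 5 rose and 0 fell with 2,7-naphthalenediol, 4 rose and 1 fell with 1,5-naphthalenediol, 5 rose and 1 fell with 1-naphthol, and 3 rose and 4 fell with naphthalene. The shares of all genes called were 11%, 22.1%, 20.8% and 25.1% in that order. With slide as a block these were 5 and 0, 5 and 0, 3 and 0, and 0 and 0 in that order. Centred on the array median, 1 rose and 0 fell with 2,7-naphthalenediol, and 2 rose and 7 fell with naphthalene. Aldh3a1, an aldehyde dehydrogenase known as an AhR target, was not well above background on any DMSO array. Its level was at least 19-fold higher with 1-naphthol, at least 12-fold higher with 1,5-naphthalenediol and at least 4.27-fold higher with 2,7-naphthalenediol. These bounds set each group's mean against the higher of the DMSO signal and the faintest signal counted as above background on that array. The DMSO signal was the higher, so the bounds equal the measured folds and rest on a signal near the floor. Aldh3a1 passed the filter only through the hydroxylated compounds' groups, where it is high, so no p-value is given. Ptgr1, which reduces alkenals, rose by 0.81 with 1,5-naphthalenediol, 0.48 with 1-naphthol and 0.21 with 2,7-naphthalenediol. Dcxr, the reductase of xylulose and dicarbonyls, rose by 0.41 and 0.26 with 1,5-naphthalenediol and 1-naphthol, the latter not called with slide as a block (0.16, adjusted p = 0.245).

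The routes in which the other members work were counted in the same way. Their counts stand beside 11% of all genes called with 2,7-naphthalenediol, 22.1% with 1,5-naphthalenediol, 20.8% with 1-naphthol and 25.1% with naphthalene. With slide as a block far fewer of all genes were called with 1-naphthol and naphthalene, so counts of 0 there are not particular to these lists. In the glucuronate and vitamin C route of Akr1a1, 8 genes were tested and 2 rose and 0 fell with 1,5-naphthalenediol, Ugdh by 0.55 and Dcxr by 0.41. With 1-naphthol 3 rose and 0 fell, but none of the 8 was called with slide as a block, and with naphthalene 0 of 8 were called. In the polyol and osmotic list of Akr1b1, 0 rose and 3 fell of 8 with 1,5-naphthalenediol (2 fell with slide as a block), among them the glucose carrier Slc2a2 (-0.31, adjusted p = 0.000406) and the inositol carrier Slc5a3 (-0.31, adjusted p = 0.0247). Of 15 bile acid genes, the route of Akr1d1, 3 rose and 4 fell with 1,5-naphthalenediol, among them Acox2, a peroxisomal oxidase, at 0.62 and Hsd3b7, a steroid dehydrogenase, at -0.33. With 1-naphthol 3 rose and 2 fell, against 0 and 0 with slide as a block. Of 10 genes on the steroid list, 2 rose and 1 fell with 1,5-naphthalenediol, with Hsd3b5 at 0.65 and Hsd17b7 at -0.44. With 1-naphthol 3 rose and 3 fell, again 0 and 0 with slide as a block. With 2,7-naphthalenediol 2 rose and 2 fell, or 2 and 3 with slide as a block. On the glucuronate, polyol and bile acid lists that diol's counts were 1 and 1, 0 and 1, and 0 and 1 in both fits. With naphthalene 1 rose and 1 fell on the polyol list, and 1 and 2 on both the bile acid and steroid lists. None of these naphthalene calls was kept with slide as a block.

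The genes whose levels ran most like those of a member were found by Pearson's r over the 15 arrays among 10502 other named genes. This r is a description, since the arrays share groups and slides. For Akr1b8 these were Gstp1 (r = 0.993), the small heat shock protein Hspb1 (0.987) and the aminopeptidase Enpep (0.979). Gstp1 stood at -0.03 to 0.08 with DMSO, 0.34 to 0.43 with 2,7-naphthalenediol, 0.91 to 0.99 with 1-naphthol and 2.28 to 2.37 with 1,5-naphthalenediol. It was not called with naphthalene (0.09, adjusted p = 0.118). Enpep was at -0.03 with 2,7-naphthalenediol against DMSO (adjusted p = 0.769), where Akr1b8 was at 0.22. For Akr7a3 they included Ptgr1 (0.985) and the phosphate carrier Slc17a1 (0.971). Ptgr1 changed by 0.21, 0.81 and 0.48 with 2,7-naphthalenediol, 1,5-naphthalenediol and 1-naphthol, beside 0.31, 0.81 and 0.51 for Akr7a3. For Akr7a2, whose 15 values lay between 0.91 and 1.18, these were Arfip2 (0.930), Sdf2l1 (0.901) and Gmppb (0.885).

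**Figure D5:**
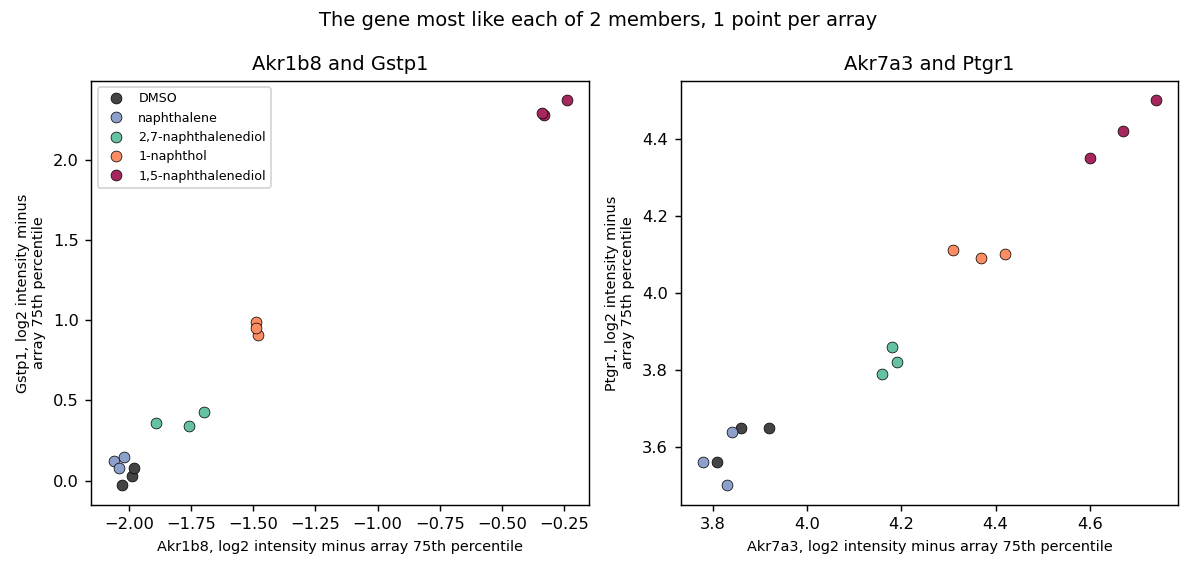
Level of Akr1b8 against that of Gstp1 (left) and of Akr7a3 against that of Ptgr1 (right), each as log2 intensity minus the array's 75th percentile, with 1 point per array coloured by group. The 1,5-naphthalenediol arrays stand apart at the upper right of both panels (Gstp1 2.28 to 2.37, Ptgr1 4.35 to 4.50), and the DMSO and naphthalene arrays lie together at the lower left.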

How the data were processed

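Total RNA of the 15 cultures was labelled with Cy3 and hybridised to one-colour Agilent rat arrays, per the labels' protocols. The deposited files are scanner output from Feature Extraction 10.7.1.1, per the file headers, and hold the processed signal, an intensity that the software had corrected for background, and its flags (the other columns used). From these, outlier spots (250 to 354 an array) and 4259 control spots were left out, the array's 75th percentile was subtracted from log2 intensity over 58717 gene spots, and spots of a probe were averaged. No gene spot was saturated. Symbols came from RefSeq accessions (GRCr8): 21229 of 45598 probes had a symbol and the rest kept their accession. Probes well above background on all arrays of a group were kept (23562), the brightest probe stood for a gene, and 19803 genes were fitted with limma 3.58.1 (R 4.3.3) as 5 group means, with Benjamini-Hochberg adjustment within each of 10 comparisons. With 3 arrays a group, the number of arrays limits the precision. The files name build rn4, so no gene coordinates were taken from them; promoter windows are those of the RefSeq table. The fit was tested on simulated data. Members, gene lists and naming rules (all members, up to 4 called genes of largest change per list, the 3 most alike genes per member with an F test call) were chosen with earlier results of these data known. A gene that these rules name is not reported here. Alternatives were other scalings, filters, probes, slide and replicate blocks, single slides and leaving out each array. Replicate numbers did not pair the arrays.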

Additional observations from a re-analysis of the deposited data

How the results depend on the processing

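Over the members' changes, 1063 values under an alternative kept their side of the threshold, 17 lost their call and 12 gained one. Of the changes called in either fit, 0 reversed direction. Direction was not compared where neither fit gave a call, and some such changes switched sign. With slide as a block, naphthalene minus DMSO moved from -0.10 to 0.17 for Akr1d1 and from -0.04 to 0.15 for Akr7a2. The planned normexp correction on mean signals was not run, because the files used here hold median signals; normexp with an offset of 50 on those was chosen after seeing the data. Where a count below differs from the one reported, the cause was not tested, except that no filter tests more genes and that single slides and fewer groups use fewer arrays. With slide as a block, called members numbered 1 for 1,5-naphthalenediol minus 1-naphthol, 0 for 2,7-naphthalenediol minus 1-naphthol and 0 for 2,7-naphthalenediol minus naphthalene; all genes called fell to 223 (1-naphthol minus DMSO), 144 (naphthalene minus DMSO), 371 (1,5-naphthalenediol minus 1-naphthol), 1677 (1,5-naphthalenediol minus naphthalene), 16 and 4 (2,7-naphthalenediol minus 1-naphthol and minus naphthalene), and F test calls to 5196. With no filter on dim probes, members called were 1 for 2,7-naphthalenediol minus DMSO and 1 for 2,7-naphthalenediol minus 1-naphthol, F test calls 4715, and all genes called 519, 2422, 1966, 2181, 142, 1375, 572, 2527, 1186 and 1022. Within slide 1, members called were 1 for 2,7-naphthalenediol minus DMSO, and 1593 genes were called between the diols. Within slide 2, 53 genes were called for 1-naphthol minus naphthalene, 15 (1 member) for 1,5-naphthalenediol minus 1-naphthol and 380 for 1,5-naphthalenediol minus naphthalene. With only the groups compared, members called were 1 for 2,7-naphthalenediol minus DMSO, 1 for 1,5-naphthalenediol minus 1-naphthol and 1 for 2,7-naphthalenediol minus naphthalene. All genes called in that setting included counts of 1031, 2362, 2795, 53, 1136, 447, 1186 and 1856. These do not cover all comparisons and are not matched to them here. Centred on the array median, 1 member was called for naphthalene minus DMSO. With normexp, 815 genes were called for 1-naphthol minus naphthalene.

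Leaving out each array in turn, F test calls ranged from 6781 to 9311. Members called ranged from 1 to 2 for 2,7-naphthalenediol minus DMSO and minus 1-naphthol, from 2 to 3 for 1,5-naphthalenediol minus DMSO and minus naphthalene and for 1-naphthol minus DMSO, and stayed at 2 in the 4 other comparisons between compounds and at 0 for naphthalene minus DMSO. The third member is Akr7a2, without DMSO replicate 1 or 1,5-naphthalenediol replicate 3. All genes called ranged, against DMSO, from 732 to 1614 (2,7-naphthalenediol), 3002 to 4381 (1,5-naphthalenediol), 1987 to 3107 (1-naphthol) and 2583 to 4977 (naphthalene). They ranged from 1823 to 2625 between the diols, 176 to 473 for 1-naphthol minus naphthalene, 694 to 3409 and 3146 to 5851 for 1,5-naphthalenediol minus 1-naphthol and minus naphthalene, and 1180 to 1801 and 1180 to 2479 for 2,7-naphthalenediol minus the same. Scaling moved the share of called genes that were higher: centred on the array median it was 21.5% for naphthalene against DMSO in place of 49.8%, 32.5% for 1-naphthol in place of 49.1%, 25.6% for 1,5-naphthalenediol in place of 42.5% and 27.8% for 2,7-naphthalenediol in place of 56.2%. For 1-naphthol minus naphthalene it was 67.9% so centred and 27.2% with normexp, in place of 42.7%; for 1,5-naphthalenediol minus naphthalene 58.6%, with 45.2% reported, and 35.2% with normexp; for 2,7-naphthalenediol minus naphthalene 55.4%, with 40% reported.

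Replicate numbers did not pair the arrays: 2 of 30 same-numbered pairs of arrays correlated above 0.1 in their deviations from the group means, and for 5 of 15 the best match bore the same number. With a replicate block, members called were unchanged except 3 for 1-naphthol minus DMSO, which adds Akr7a2, and F test calls were 8083.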
